A study of Rattus norvegicus with 4 samples.

Results

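Amino acid transporters of the plasma membrane and lysosome were described in NRK-52E, an established line of rat kidney epithelium that the labels call proximal tubular. The genes were chosen by name alone: protein-coding genes of the deposited table whose symbol belongs to the solute carrier families Slc1, Slc3, Slc6, Slc7, Slc36, Slc38 or Slc43. The rule found 42 of the 17768 genes listed. It also took in Slc7a6os, which lies beside Slc7a6 and encodes no transporter, so 41 carry or assist the transport of amino acids or related compounds. Counts of genes below include Slc7a6os unless stated, and summed levels leave it out.

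These families supply cells with amino acids in different ways. Slc1, Slc6 and Slc38 carriers mostly import by coupling to the sodium gradient, Slc36 carriers couple to protons, and Slc43 carriers let neutral amino acids run down their gradient. Heteromeric exchangers pair a glycoprotein heavy chain of the Slc3 family, which brings the complex to the membrane, with a light chain of the Slc7 family, which forms the pore. In the proximal tubule such carriers recover filtered amino acids at the brush border and pass them to the blood at the basolateral side.

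RNA was sequenced from 4 libraries, 2 titled lv_nc and 2 titled lv_Mettl3, all labelled untreated and all given the same protocol text. In that text a lentiviral pLVX-IRES-Puro vector with a murine Mettl3 cDNA was put into NRK-52E, and a stable line was selected with puromycin at 0.5 mg/ml and kept at 0.25 mg/ml. Mettl3 is the enzyme that places N6-methyladenosine on RNA. The labels do not explain nc, name no clone, and do not say whether replicates were separate cultures, so every p-value reflects only how far these libraries scatter, and that scatter may be technical.

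The libraries hold 15068898 to 16622255 gene reads, and values below are normalized read counts. Mettl3 was at 719 and 767 in lv_nc, and at 757 and 700 in lv_Mettl3, so the titled gene did not separate the groups. How reads of a murine cDNA were counted against rat genes is not given in the sources used here. Higher and lower are said of the libraries labelled lv_Mettl3. The lv_nc replicate 2 library stood apart. Over the 10051 genes averaging 100 or more, its log2 differences from the other 3 libraries had SDs of 0.41, 0.52 and 0.47, against 0.29 between the lv_Mettl3 libraries. The lv_nc replicate 1 library had SDs of 0.32 and 0.36 from the lv_Mettl3 libraries, smaller than its 0.41 from lv_nc replicate 2. The lv_nc libraries were thus not closest to each other. Of the labelled cell type's defining markers, 10 of 18 were in the table and among these Lrp2, Aqp1, Pck1 and Miox had means under 10, while Ggt1 (means of 2471 in lv_nc and 3526 in lv_Mettl3) and Gatm (631 and 605) were well expressed. The values of that list summed to 3106 and 3250 in lv_nc and to 3966 and 4426 in lv_Mettl3, most of it Ggt1, which DESeq2 called higher (adjusted p = 0.0345). Krt8 and Tjp1 were abundant, while the epithelial genes Cdh1, Krt19 and Cldn1 had means under 10. Most fibroblast and smooth muscle markers found moved with the groups. Of the 6 of 10 found, DESeq2 called 4, all lower, beside 2.52% of all genes with an adjusted p. The summed values of the 6 were 13425 and 17568 in lv_nc against 5150 and 4552 in lv_Mettl3. Tagln overlapped, at 3778 and 1663 in lv_nc and 2160 and 2152 in lv_Mettl3. In fits without single libraries limma log2 differences were -2.41 to -1.79 for Col3a1, -3.19 to -2.04 for Col1a1 and -2.63 to -1.88 for Col1a2. They were -1.57 to -0.54 for Acta2 and -0.81 to 0.37 for Tagln. Pdgfra, a defining fibroblast marker, was at 0.923 to 3.10 normalized reads. Immune, endothelial and distal nephron markers (9 of 20 found) summed to at most 54.8 normalized reads per list in any library. The part of these shifts in the differences below was not tested, and in bulk RNA fewer cells of a type and less RNA per cell cannot be told apart.

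A narrow group of carriers made up most of the transporter mRNA. By mean over the 4 libraries 10 genes reached at least 1000 normalized reads, 12 lay between 100 and 1000, 5 between 10 and 100, and 15 below 10. Levels are compared between genes only per kilobase of the deposited gene length. Slc38a2, a sodium-coupled importer of small neutral amino acids, was first with a mean level of 3259 per kilobase, rank 348 among all genes of the table, and held 32.4% of the summed level of the 41 genes. The heavy chain gene Slc3a2 followed with 1288, the taurine carrier Slc6a6 with 720.2, Slc38a10 with 701 and the glutamine carrier Slc1a5 with 652. Slc7a11, over a deposited length of 8894 bases, had only 11.7 per kilobase.

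**Figure D1:**
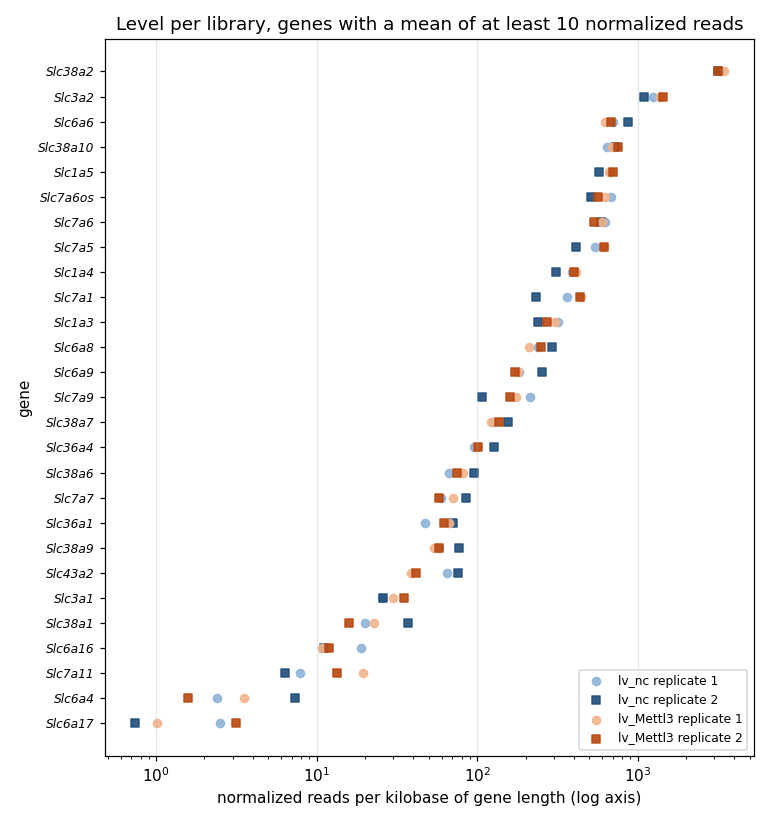
Level of each gene of the rule with a mean of at least 10 normalized reads, Slc7a6os included (rows), in each of the 4 libraries (points), in normalized reads per kilobase on a log axis. Slc38a2 lies above all others in every library, and lv_nc replicate 2 (dark blue squares) is often at the edge of a row.

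Summed over genes, the transporter mRNA differed little between libraries, while the share of single families moved with lv_nc replicate 2. The summed level of the 41 genes was 10010 and 9634 per kilobase in lv_nc, and 10377 and 10213 in lv_Mettl3. Slc38 genes made up 42.4% of it, Slc7 genes 17.4%, Slc3 genes 13.1%, Slc1 genes 13.1% and Slc6 genes 11.8%. In lv_nc replicate 2 the Slc6 genes summed to 1434 per kilobase and the Slc7 genes to 1433, where the other 3 libraries had 1037 to 1149 and 1821 to 1930. The Slc43 family, 0.555% of the sum, had 65.0 and 77.8 per kilobase in lv_nc and 38.7 and 41.6 in lv_Mettl3, nearly all of it from Slc43a2.

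**Figure D2:**
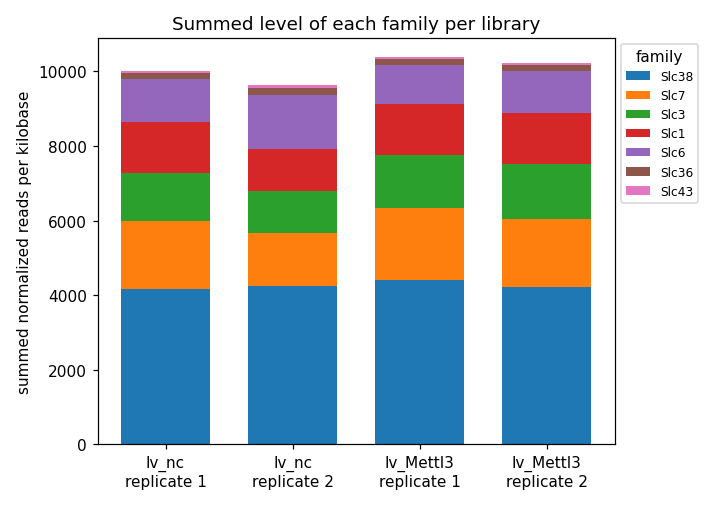
Summed level of each family (colours) in each library (bars), in normalized reads per kilobase, without Slc7a6os. The bars reach 9634 to 10377, and Slc38 is the tallest segment in every library.

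No transporter gene passed the test between the groups. Limma on log2(value + 1), over genes that reached 1 in 2 or more libraries, called 0 of the 33 genes tested at an adjusted p under 0.05, where it called 0.0183% of all 16391 genes. The 33 include Slc7a6os. Without it 32 were tested, and 21 rather than 22 averaged 100 or more. DESeq2 on the recovered reads called 0 of the 25 with an adjusted p, against 2.52% of all genes that had one, and edgeR called 0 of 33, against 0.0305%. The smallest adjusted p over the transporter genes was 0.378 in limma, 0.0801 in DESeq2 and 0.347 in edgeR. At an unadjusted limma p under 0.05 there were 6 genes, 5 higher and 1 lower, which is 18.2% of those tested beside a background of 10.5% (5.54% higher, 4.93% lower). DESeq2 gave 4 of 42 at that level (9.52%, beside 7.44% of all genes) and edgeR 5 of 33 (15.2%, beside 10.1%). A pair of the 6, Slc6a2 and Slc7a4, rested on at most 8 reads in any library and passed the filter through lv_Mettl3, where both are higher. Neither of this pair is among the 22 genes averaging 100 or more over all libraries. Among these 22 the count was 4, or 18.2%, beside a background of 11.5%.

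The genes as a set did not lean either way. Of the 33 tested, 17 had a log2 difference above 0 and 16 below, with a median of 0.013, beside 50.7% above 0 and a median of 0.0051 over all genes tested. Slc7a6os, which is no transporter, is 1 of the 17, and its 0.013 is that median. Both libraries of one group lay outside the range of the other for 14 of 33 (8 higher, 6 lower), or 42.4%, where the background was 45%. The 8 include Slc6a2 and Slc7a4, which passed the filter through lv_Mettl3, and the 6 include Slc38a3 and Slc38a4. These had at most 8 reads in any library, and each also counts among the 17 or 16 above. Among the 22 genes averaging 100 or more the groups were apart for 9 (5 higher, 4 lower), or 40.9%, against 47.6% of all such genes (23.4% higher, 24.2% lower). Their median absolute log2 difference was 0.16, and it was 0.15 over all such genes.

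**Figure D3:**
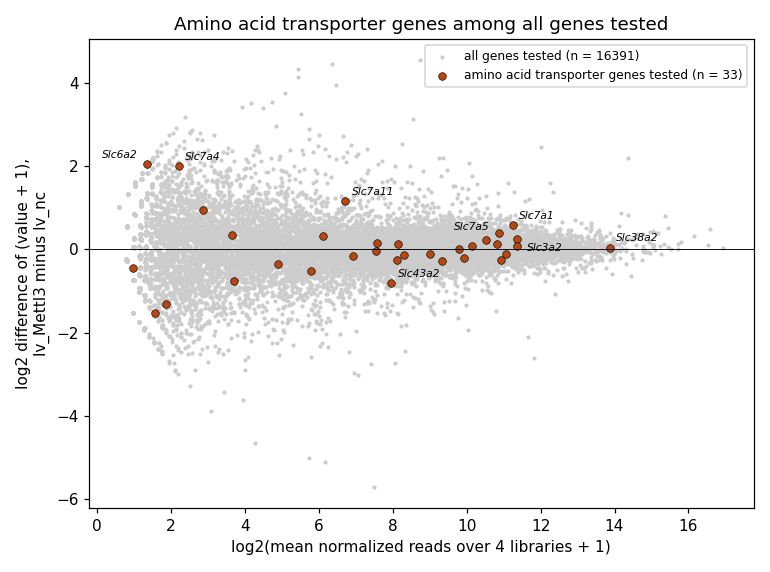
Log2 difference of (value + 1), lv_Mettl3 minus lv_nc, against log2 of (mean normalized reads + 1) for the 16391 genes tested (grey) and the 33 genes of the rule among them, Slc7a6os included (orange). Most transporter genes lie within the grey cloud, and Slc7a11 and Slc43a2 are the farthest from 0 among the genes averaging 100 or more.

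Replicates of lv_nc differed more than those of lv_Mettl3 in these genes. Over the 22 genes averaging 100 or more, the replicates had a median absolute log2 difference of 0.36 in lv_nc and of 0.12 in lv_Mettl3, beside 0.21 and 0.10 over all genes of that level. The lv_nc replicate 2 library was the farthest from the median of the 4 in 17 of the 22, or 77.3%, where the share over all such genes was 53.9%. It was the highest library for 10 of the 22 and the lowest for another 10. For the genes treated at length below the difference without it is given too.

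Both heavy chain genes had higher values in both lv_Mettl3 libraries, and neither passed the test. Slc3a2 (ENSRNOG00000018487, chromosome 1, 224906554 to 224921092 in the deposited coordinates, whose build the sources used here do not name) encodes the heavy chain shared by the system L, y+L and cystine exchangers. It measured 2575 and 2249 in lv_nc, with 2824 and 2937 in lv_Mettl3. Both lv_Mettl3 libraries were above both lv_nc libraries, and the limma log2 difference was 0.26 (SE 0.10, adjusted p = 0.486), or 0.16 without lv_nc replicate 2. Slc3a1, the heavy chain that partners Slc7a9 in cystine and dibasic amino acid uptake at the brush border, stood at 59.6 and 60.9 in lv_nc, against 70.0 and 82.7 in lv_Mettl3. These groups did not overlap either, at a log2 difference of 0.33 (SE 0.25, limma adjusted p = 0.642), or 0.35 without lv_nc replicate 2.

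Among the light chains, Slc7a5 and Slc7a11 were higher in both lv_Mettl3 libraries. Slc7a5 (ENSRNOG00000018824, chromosome 19, 54693959 to 54722563) encodes the large neutral amino acid exchanger that imports leucine. It had lv_nc values of 1865 and 1418 and lv_Mettl3 values of 2139 and 2133. The lv_Mettl3 values nearly coincide and lie above both lv_nc values, with lv_nc replicate 2 the lowest library. The log2 difference was 0.39 (SE 0.15, limma adjusted p = 0.473). It was 0.20 without lv_nc replicate 2 and 0.59 without lv_nc replicate 1, so the size depends on which lv_nc library is kept.

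Slc7a11 (ENSRNOG00000010210, chromosome 2, 139453774 to 139528162) encodes the cystine and glutamate exchanger that supplies cysteine for glutathione. It measured 70.3 and 56.3 in lv_nc, with 172 and 119 in lv_Mettl3. The groups were apart, and the lv_Mettl3 libraries differed from each other by more than the lv_nc libraries did. The means were 63.3 ± 9.92 and 145 ± 37.4 (SD, 2 libraries each), a 2.29-fold ratio and a log2 difference of 1.17 (SE 0.29, limma adjusted p = 0.399, DESeq2 adjusted p = 0.0886). This was the only gene averaging 100 or more whose log2 difference exceeded 1 in size. Fits without single libraries gave 0.91 to 1.43, and the value without lv_nc replicate 2 was 1.01.

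The other light chains overlapped between the groups. Slc7a6, which exchanges cationic for neutral amino acids, stood at 2299 and 2151 in lv_nc, against 2187 and 1958 in lv_Mettl3. Slc7a7, the basolateral exchanger of the same kind that is mutated in lysinuric protein intolerance, had lv_nc values of 106 and 150 and lv_Mettl3 values of 125 and 102. Slc7a9 measured 367 and 184 in lv_nc, with 299 and 275 in lv_Mettl3. The lv_Mettl3 values of Slc7a9 thus fell between those of lv_nc, which differed 2.00-fold from each other.

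Per kilobase, the shared heavy chain gene ran close to the sum of its light chain genes that the rule found. Slc7a8, another of its light chains, was not among the genes found and is not in the sum. Slc3a2 was 1.01 and 1.00 times the summed level of Slc7a5, Slc7a6, Slc7a7, Slc7a10 and Slc7a11 in lv_nc, and 1.05 and 1.17 times in lv_Mettl3. The ratio of Slc7a5 to Slc7a6 was 0.857 and 0.696 in lv_nc and 1.03 and 1.15 in lv_Mettl3. Slc7a6 was therefore the more abundant light chain mRNA in both lv_nc libraries and Slc7a5 in both lv_Mettl3 libraries. Slc7a9 exceeded its partner Slc3a1 in every library, by 4.14- to 8.46-fold. With 2 libraries a group an exact permutation test of such ratios cannot go below 0.333, and none was run.

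The cationic amino acid carrier gene Slc7a1 was the next to differ. Slc7a1 (ENSRNOG00000000924, chromosome 12, 8032809 to 8108972) imports arginine and lysine. It stood at 2406 and 1533 in lv_nc, against 2927 and 2865 in lv_Mettl3. Both lv_Mettl3 libraries were higher, but lv_nc replicate 1 lay closer to them than to lv_nc replicate 2. The means were 1970 ± 617 and 2896 ± 44.3 (SD, 2 libraries each), and the log2 difference was 0.59 (SE 0.22, limma adjusted p = 0.471, DESeq2 adjusted p = 0.153). It was 0.27 without lv_nc replicate 2 and 0.92 without lv_nc replicate 1. Slc7a2, a related carrier, had at most 10 reads in any library.

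**Figure D4:**
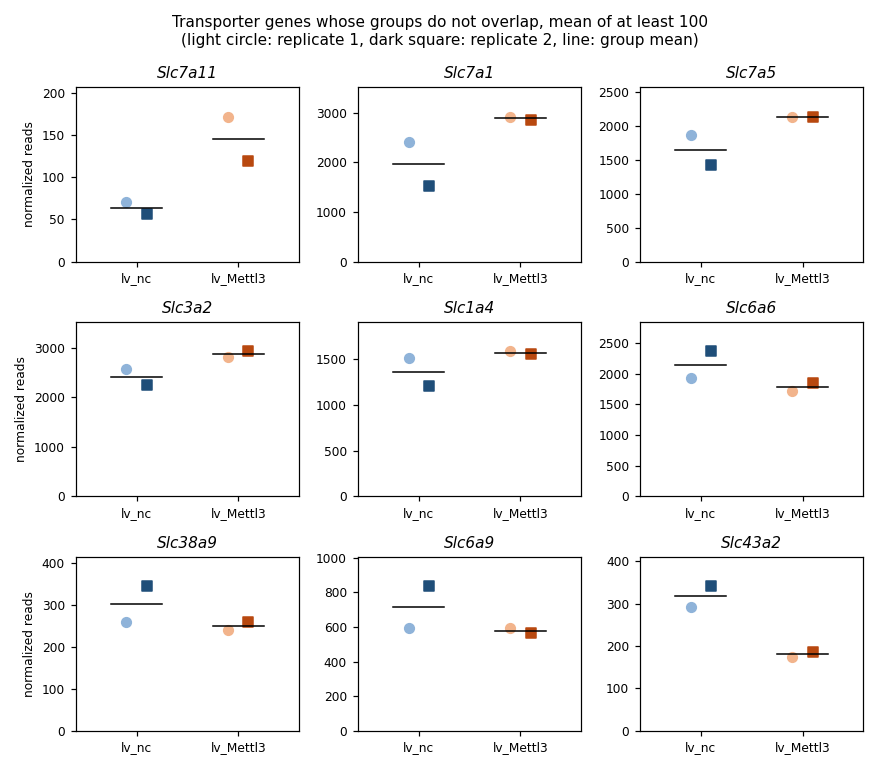
Normalized reads in each library (points) and group means (lines) for the 9 amino acid transporter genes with a mean of at least 100 whose groups do not overlap, each panel on its own axis from 0. In most panels the lv_Mettl3 points lie close together and the lv_nc points are wide apart.

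The promoters of the transporter genes, whether or not their groups lay apart, were searched for motifs known from amino acid and oxidative stress. The search covered the 250 bases before each RefSeq start in build GRCr8, on both strands, and 34 of the 42 symbols matched, with 38 windows, some of which overlap. TGATGNAAN, the element bound by ATF4 with C/EBP factors, was in 3 of the 38 (Slc7a1, Slc1a4 and Slc38a1) and in 3.38% of 33469 windows of the table. TGACNNNGC, the core bound by NRF2, was in 8 of the 38 (Slc7a1, Slc3a1, Slc3a2, Slc6a6, Slc7a7, Slc36a1, Slc38a2 and Slc38a8) and in 10.1% of all windows. The windows of 5 of the genes whose groups were apart, all but Slc43a2 higher, are shown 5′ to 3′, with matches to either motif in capitals. No capital stretch joins 2 matches, and a match is a description of these letters only.
Slc7a1, chr12:11664238-11664487, plus strand: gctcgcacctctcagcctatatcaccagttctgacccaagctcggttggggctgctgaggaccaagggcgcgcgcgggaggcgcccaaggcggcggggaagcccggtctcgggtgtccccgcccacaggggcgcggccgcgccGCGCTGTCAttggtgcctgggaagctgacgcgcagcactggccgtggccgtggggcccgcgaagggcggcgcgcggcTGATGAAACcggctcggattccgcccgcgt
Slc1a4, chr14:98761563-98761812, minus strand: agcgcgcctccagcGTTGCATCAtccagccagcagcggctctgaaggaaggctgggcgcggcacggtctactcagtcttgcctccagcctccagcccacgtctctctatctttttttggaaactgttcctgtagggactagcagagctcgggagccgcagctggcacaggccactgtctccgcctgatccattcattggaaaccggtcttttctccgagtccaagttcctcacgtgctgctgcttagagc
Slc3a2, chr1:215039671-215039920, minus strand: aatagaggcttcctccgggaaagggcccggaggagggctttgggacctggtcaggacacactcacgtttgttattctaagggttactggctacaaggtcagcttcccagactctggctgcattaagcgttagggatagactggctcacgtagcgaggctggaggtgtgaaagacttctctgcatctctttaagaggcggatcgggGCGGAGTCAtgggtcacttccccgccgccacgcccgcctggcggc
Slc7a11, chr2:136668265-136668514, minus strand: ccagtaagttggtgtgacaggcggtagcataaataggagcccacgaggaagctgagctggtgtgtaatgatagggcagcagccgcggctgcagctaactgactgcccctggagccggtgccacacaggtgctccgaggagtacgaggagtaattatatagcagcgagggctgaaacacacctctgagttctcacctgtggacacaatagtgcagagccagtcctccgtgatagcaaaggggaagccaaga
Slc43a2, chr10:60874588-60874837, plus strand: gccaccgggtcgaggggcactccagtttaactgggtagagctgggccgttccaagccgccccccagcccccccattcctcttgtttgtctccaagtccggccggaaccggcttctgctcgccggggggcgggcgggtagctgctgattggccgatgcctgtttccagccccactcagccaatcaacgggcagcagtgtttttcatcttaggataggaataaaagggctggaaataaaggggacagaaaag

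The Slc7a1 window holds TGATGAAAC on its own strand, starting 30 bases before the start, and the reverse complement of the NRF2 core, GCGCTGTCA, further upstream. The Slc1a4 window holds the first motif on the opposite strand, read here as GTTGCATCA. The Slc3a2 window holds GCGGAGTCA, also a match on the opposite strand, while a second RefSeq window of Slc3a2 holds neither motif. The windows of Slc7a11, Slc7a5 and Slc43a2 hold neither. Slc38a1 had TGATGCAAC, and its level did not separate the groups. Slc6a6, which was lower with its groups apart, had GCGAGGTCA, a match to the NRF2 core on the opposite strand. Its window is not shown. Slc3a1, which was higher with its groups apart, matched the NRF2 core too. So did Slc7a7, Slc36a1, Slc38a2 and Slc38a8, whose groups overlapped.

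Of the Slc1 carriers of glutamate and neutral amino acids that averaged 100 or more, Slc1a4 alone had groups that did not overlap. Slc1a4, which exchanges alanine, serine and cysteine, had lv_nc values of 1516 and 1203 and lv_Mettl3 values of 1589 and 1556, a log2 difference of 0.22 (SE 0.14, limma adjusted p = 0.579) that was 0.05 without lv_nc replicate 2. Slc1a5 measured 1851 and 1570 in lv_nc, with 1824 and 1932 in lv_Mettl3. Slc1a3, a glutamate importer best known from glia, stood at 1266 and 950 in lv_nc, against 1224 and 1091 in lv_Mettl3. In all 3 genes lv_nc replicate 2 was the lowest library.

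The Slc6 carriers of taurine, creatine and glycine had the opposite order, with lv_nc replicate 2 the highest. Slc6a6, the taurine carrier, had lv_nc values of 1921 and 2365 and lv_Mettl3 values of 1715 and 1849. Slc6a9, a glycine carrier, measured 596 and 838 in lv_nc, with 595 and 563 in lv_Mettl3. Slc6a8, the creatine carrier, stood at 930 and 1144 in lv_nc, against 825 and 981 in lv_Mettl3. Groups did not overlap for Slc6a6 and Slc6a9, although lv_nc replicate 1 and lv_Mettl3 replicate 1 differed little in Slc6a9. The log2 differences were -0.26 for Slc6a6 (SE 0.13, limma adjusted p = 0.524) and -0.29 for Slc6a9 (SE 0.19, limma adjusted p = 0.590), and -0.11 and -0.04 without lv_nc replicate 2.

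Of the sodium-coupled Slc38 genes, the dominant Slc38a2 was the steadiest of the genes averaging 1000 or more. It had lv_nc values of 15070 and 14649 and lv_Mettl3 values of 15986 and 14715, so that the highest library was 1.09 times the lowest. The largest such ratio, 1.91, was that of Slc7a1. Slc38a2 encodes a carrier whose mRNA is known to rise on amino acid starvation in many cells. Slc38a10 measured 2430 and 2698 in lv_nc, with 2588 and 2831 in lv_Mettl3, with replicate 2 the higher library in both groups.

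The lysosomal carriers were at lower levels. Slc38a9, which senses arginine in the lysosome for the growth kinase mTORC1, stood at 260 and 345 in lv_nc, against 240 and 259 in lv_Mettl3. Its groups were apart by less than 1 normalized read, at a log2 difference of -0.26 (SE 0.19, limma adjusted p = 0.626) that was -0.06 without lv_nc replicate 2 and -0.47 without lv_nc replicate 1. Slc38a7, which exports lysosomal glutamine, had lv_nc values of 472 and 589 and lv_Mettl3 values of 461 and 519. The proton-coupled genes overlapped between groups, with Slc36a1 at 147 to 219 and Slc36a4 at 284 to 378 over the 4 libraries. Slc38a6, at 154 to 222, overlaps Trmt5 on the opposite strand, and since the sources used here do not state a strand setting its reads are uncertain.

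Slc43a2 had the smallest p of the transporter genes in both limma and DESeq2. Slc43a2 (ENSRNOG00000003835, chromosome 10, 63677396 to 63719283) encodes a facilitated carrier that lets branched-chain and aromatic amino acids leave epithelial cells. It measured 292 and 342 in lv_nc, with 174 and 187 in lv_Mettl3. Both lv_Mettl3 libraries lay well below both lv_nc libraries, and the gap between groups was larger than the spread within either. The means were 317 ± 35.6 and 180 ± 9.31 (SD, 2 libraries each), and the log2 difference was -0.81 (SE 0.17, limma adjusted p = 0.378, DESeq2 adjusted p = 0.0801). It stayed between -0.92 and -0.69 in fits without single libraries.

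**Figure D5:**
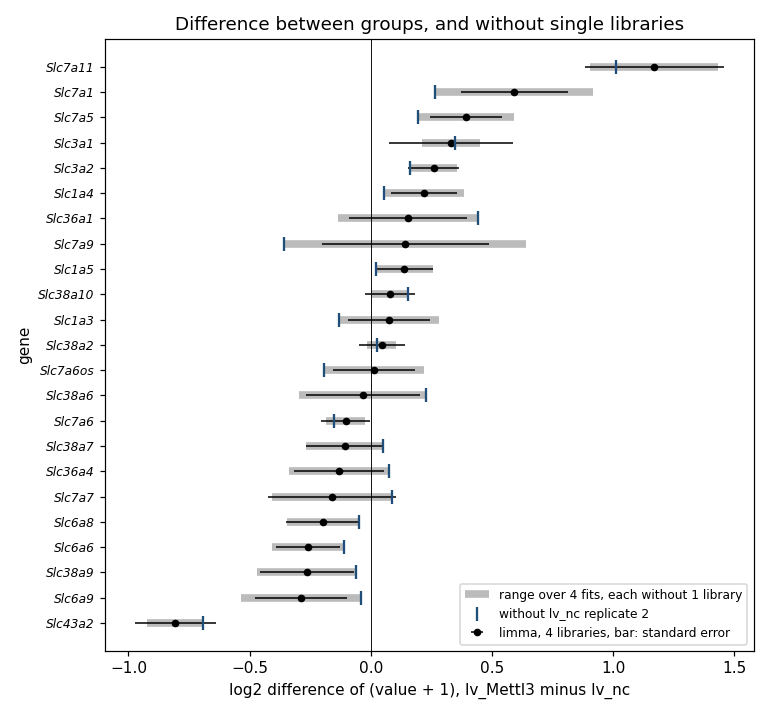
Limma log2 difference of (value + 1), lv_Mettl3 minus lv_nc, with its standard error (points and thin bars) for 23 genes, the range over 4 fits that each leave out 1 library (grey) and the fit without lv_nc replicate 2 (blue tick). Slc43a2 and Slc7a11 lie farthest from 0, and the blue tick lies nearer to 0 than the point for each of the 9 genes drawn library by library above.

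Without lv_nc replicate 1, DESeq2 called 4 of the 25 genes with an adjusted p, or 16.0%, beside 12.7% of all genes. These were Slc7a1 (log2 difference 0.91, adjusted p = 6.76e-10), Slc7a5 (0.59, adjusted p = 0.000819), Slc3a2 (0.35, adjusted p = 0.0475) and Slc6a6 (-0.41, adjusted p = 0.0351). In that fit lv_nc is represented by replicate 2 alone, assumed to vary like lv_Mettl3. Without lv_nc replicate 2, where replicate 1 stands alone, DESeq2 called 0 of the 28 with an adjusted p, beside 1.61% of all genes. At an unadjusted p under 0.05 limma gave 5 of 33 transporter genes without lv_nc replicate 2 (15.2%, beside 9.93% of all genes) and 15 of 33 without lv_nc replicate 1 (45.5%, beside 25.8%). DESeq2 gave 3 of 40 (7.5%, beside 4.46%) and 8 of 42 (19%, beside 15.6%) in the same pair of fits.

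A total of 15 genes were at a mean below 10, with no library above 10 reads, and 8 of them had at most 3 reads in every library. These include carriers that mark specialised cells, such as the noradrenaline carrier Slc6a2, the glial glutamate carrier Slc1a2 and the kidney glutamine carrier Slc38a3. Slc6a2 had 0 reads in both lv_nc libraries and 3 in each lv_Mettl3 library, and passed the filter only through the latter. Slc7a4 had 2 and 0 reads in lv_nc and 4 and 8 in lv_Mettl3. Slc6a20, the imino acid carrier of the brush border, had 4 and 1 reads in lv_nc and 0 in both lv_Mettl3 libraries, and since RefSeq lists the copies Slc6a20a and Slc6a20b in rat its reads are uncertain. At this depth differences in these genes were not detectable. The others of this class were Slc1a7, Slc6a12, Slc7a10, Slc7a12, Slc7a15, Slc38a4, Slc38a5, Slc38a8 and Slc43a1. The serotonin carrier Slc6a4 and Slc6a17 were only slightly above, at 4.62 to 24.0 normalized reads over the libraries, and Slc6a16 was at 23.3 to 41.0. None of these 3 had groups that were apart.

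Genes that act with the transporters were read from lists chosen with earlier results known. Of 22 genes of the amino acid deprivation response tested, limma called 0 and DESeq2 1 (2.52% of all genes), with 11 above 0 and a median of -0.0045. At an unadjusted limma p under 0.05, which 10.5% of all genes had, there were 4, with Mthfd2, Ddit3 and Atf5 higher and Psat1 lower. The DESeq2 call, Aldh18a1, rested on 1 library, at 139 and 5.54 in lv_nc and 6.36 and 4.13 in lv_Mettl3. Atf4, the transcription factor of this response, stood at 3761 and 3040 in lv_nc, against 4047 and 4231 in lv_Mettl3. Its target Asns, which makes asparagine, had lv_nc values of 1730 and 1725 and lv_Mettl3 values of 1896 and 1909. Groups were apart in both, at log2 differences of 0.29 and 0.14 (limma adjusted p = 0.502 and 0.574), or 0.14 for each without lv_nc replicate 2. Psat1, an enzyme of serine synthesis, was lower, at 3864 and 3837 in lv_nc and 3276 and 2981 in lv_Mettl3 (log2 difference -0.30, limma adjusted p = 0.452, and -0.31 without lv_nc replicate 2). Ddit4, an inhibitor of mTORC1 signalling, was lower too (log2 difference -0.68, limma adjusted p = 0.531), but only by -0.15 without lv_nc replicate 2, its highest library at 1797 against 727 to 861 in the others. Atf4, Asns, Psat1 and Ddit4 were chosen after their values were seen.

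Of 27 genes of amino acid sensing by mTORC1, limma called 0 (4 unadjusted, all lower, beside 4.93% of all genes). DESeq2 called 1 lower, beside 2.52% of all genes in either direction. This was Castor2, a homologue of the arginine sensor Castor1 (109 and 205 in lv_nc, 35.0 and 66.1 in lv_Mettl3, DESeq2 adjusted p = 0.0236). DESeq2 no longer called Castor2 without lv_nc replicate 2 or without either lv_Mettl3 library (adjusted p of 0.16 or more). The list had 10 genes above 0 and a median of -0.04. Its unadjusted limma count was 1 of 27 without lv_nc replicate 2 and 10 of 27 without lv_nc replicate 1, beside the 9.93% and 25.8% above. Of 7 genes of glutathione synthesis and breakdown, limma called 0 (1 unadjusted, beside 10.5% of all genes) and DESeq2 1 (beside 2.52%). The DESeq2 call was Ggt1, the brush border peptidase that cleaves extracellular glutathione. Its means were 2471 ± 83.6 in lv_nc and 3526 ± 328 in lv_Mettl3 (SD, 2 libraries each, DESeq2 log2 difference 0.51, adjusted p = 0.0345). DESeq2 called Ggt1 without either lv_nc library (adjusted p = 0.00434 and 0.00572) and did not without either lv_Mettl3 library. Its limma log2 difference was 0.54 without lv_nc replicate 2. Gclm, a subunit of the first enzyme of glutathione synthesis, measured 2054 and 1822 in lv_nc, with 2211 and 2080 in lv_Mettl3.

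Of 20 cytosolic aminoacyl-tRNA synthetase genes, which load the imported amino acids, limma and DESeq2 each called 0, beside 0.0183% and 2.52% of all genes. At an unadjusted limma p under 0.05 there was 1, beside 10.5% of all genes. A total of 19 lay above 0 with a median log2 difference of 0.17, beside 50.7% and 0.0051 over all genes. Without lv_nc replicate 2 the count was 13 of 20 and the median 0.03. Of 10 accessory and regulatory proteins and 7 other carriers of amino acids or peptides tested, limma and DESeq2 called 0. Unadjusted limma counts were 2 and 0, beside the same 10.5%. In these lists 6 of 10 and 3 of 7 lay above 0, with medians of 0.09 and -0.19.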

How the data were processed

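RNA-seq of 4 NRK-52E libraries was used, grouped by title. Per the submitters' processing notes, the authors used CASAVA 1.4 and HISAT2. The sources used here name no counter, build or strand setting. The deposited library columns hold a signal, gene read counts that the authors divided by 1 size factor per library: 100% of values were whole multiples of the smallest positive value within 0.001 reads. The deposited table also holds log2 fold changes and p-values computed by the authors, and lists 0 of the 42 genes at an adjusted p under 0.05. The authors' deposited gene lengths were used per kilobase.

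The main test was limma 3.58.1 (trend, Benjamini-Hochberg over all genes) on log2(value + 1), which understates changes of low genes. DESeq2 1.42.0 and edgeR 4.0.16 were run on the recovered reads (R 4.3.3), and figures were drawn with matplotlib 3.10.9. Scripts were tested on simulated data. Every gene of the rule is accounted for, with values per library for those with a mean of at least 1000 or an unadjusted p under 0.05, for heavy chains and for others named for their role. The genes and lists were chosen with earlier results of these data known.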

Additional observations from a re-analysis of the deposited data

How the results depend on the processing

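The count of 0 transporter genes called held under every alternative run with all 4 libraries, and over fits without 1 library it was 0 to 4. The alternatives were the tests, pseudocounts of 0.1 and 5, filters, scalings and the replicate block. The limma count over all genes, 3, was 318 with DESeq2, 5 with edgeR, with limma-voom, with at least 1 CPM in all 4 libraries and with protein-coding genes only, 24 with robust empirical Bayes and 0 with a pseudocount of 0.1. It was 0 in each of the 4 limma fits without 1 library. For the 23 genes with repeated fits, 355 of 368 values kept direction and side of the threshold, and 13 reversed. The 368 do not include the DESeq2 fits without 1 library, in which some of these genes changed side of the threshold. With library size scaling Slc7a6os was at -0.026, against 0.013. Without 1 library, log2 differences were -0.34 to 0.074 for Slc36a4, -0.27 to 0.052 for Slc38a7, -0.41 to 0.087 for Slc7a7, -0.13 to 0.44 for Slc36a1, -0.014 to 0.11 for Slc38a2, -0.13 to 0.28 for Slc1a3, -0.36 to 0.64 for Slc7a9, -0.30 to 0.23 for Slc38a6 and -0.19 to 0.22 for Slc7a6os. The cause was not tested. The replicates share only a number: differences between replicates 1 and 2 correlated between groups at r = 0.33 across 10051 genes, which are not independent, and the replicate block called 0 transporter genes and 3 genes overall. Depth limits the 15 genes with a mean below 10.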

Other observations

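Some of the genes lie near each other on a chromosome. Slc38a1, Slc38a2 and Slc38a4 lie within 537 kb of chromosome 7 in the authors' coordinates, with mean levels of 23.9, 3259 and 0.658 per kilobase. Slc38a1 and Slc38a2, which both carry small neutral amino acids with sodium, are 48.7 kb apart with no other listed gene between them, and Slc38a1 stood at 45.9 and 84.0 in lv_nc, against 52.0 and 36.2 in lv_Mettl3. Slc7a9 and Slc7a10 lie 268 kb apart on chromosome 1, at 164 and 0.268 per kilobase. Slc7a6 and Slc7a6os are 1711 bases apart on opposite strands and had similar levels of 588 and 596 per kilobase. Slc7a6os had lv_nc values of 1017 and 763 and lv_Mettl3 values of 940 and 841.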
